A study of Mus musculus with 16 samples.

Results

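Gene expression in the first hour after mouse macrophages met RANKL together with α-ketoglutarate (αKG) was read from 4 of the 16 arrays of the study, namely the 2 arrays of the αKG_Fast phase (0.5 and 1 h) and the 2 arrays titled 0 h. The cells were bone marrow-derived macrophages grown from the tibias and femurs of male C57BL/6 mice aged 5 weeks. The αKG_Fast cells had received macrophage colony-stimulating factor (M-CSF), RANKL and 1 mM dimethyl αKG, and the 0 h cells had received M-CSF and DW (the label of the control treatment) with no RANKL. M-CSF was thus common to all 4 arrays. The αKG and the DW arrays at 3 and 6 h, which also had M-CSF and RANKL, are set beside the first hour. Each time after 0 h was a single array, and the labels name no separate cultures or animals behind the arrays, so a p-value reflects the spread among arrays alone, which may be technical. No DW array of the first hour was analysed here. The effect of RANKL, the effect of αKG and the time in culture therefore cannot be told apart in any value below.

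RANKL, a cytokine of the tumour necrosis factor family, binds its receptor RANK on macrophages and, through TRAF adaptors, activates NF-κB and the MAP kinases. The first genes to respond are immediate early genes, whose transcription needs no new protein: transcription factors of the AP-1 and EGR families, inhibitors that switch NF-κB off again, phosphatases that switch MAP kinases off, and proteins that degrade short-lived mRNAs. Genes of bone resorption follow much later, when the transcription factor NFATc1 has accumulated. Dimethyl αKG is an ester that enters cells and releases αKG, an intermediate of the tricarboxylic acid cycle and the cosubstrate of a family of dioxygenases.

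The promoters of some of the genes that stood highest over 0 h hold a match to the κB consensus, the form of sequence that NF-κB binds. Of the 12 genes with the highest differences described below, 10 had a promoter in the RefSeq table (GRCm38.p6), and 5 of these held a match to the κB consensus, which is 2 G, 2 purines, 2 bases of any kind, 2 pyrimidines and 2 C, searched on both strands. The 250 bases before the transcription start of these 5 genes are printed 5′ to 3′ along the gene's strand, with the matches in capitals. They are Cxcl2 at chr5:90903649-90903898 on the plus strand, Nfkbia at chr12:55492648-55492897 on the minus strand, Nfkbie at chr17:45555450-45555699 on the plus strand, Ccrl2 at chr9:111057519-111057768 on the minus strand and Tnfaip3 at chr10:19015411-19015660 on the minus strand.
Cxcl2: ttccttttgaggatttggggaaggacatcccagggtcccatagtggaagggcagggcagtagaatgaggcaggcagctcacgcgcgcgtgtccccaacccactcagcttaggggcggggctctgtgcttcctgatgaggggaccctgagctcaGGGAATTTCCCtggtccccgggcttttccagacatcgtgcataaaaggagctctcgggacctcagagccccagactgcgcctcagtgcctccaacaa
Nfkbia: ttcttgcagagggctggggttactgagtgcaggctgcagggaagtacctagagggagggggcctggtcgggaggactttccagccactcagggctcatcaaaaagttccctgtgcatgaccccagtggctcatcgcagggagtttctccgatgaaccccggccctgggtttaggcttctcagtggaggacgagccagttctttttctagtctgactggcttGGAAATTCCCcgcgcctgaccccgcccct
Nfkbie: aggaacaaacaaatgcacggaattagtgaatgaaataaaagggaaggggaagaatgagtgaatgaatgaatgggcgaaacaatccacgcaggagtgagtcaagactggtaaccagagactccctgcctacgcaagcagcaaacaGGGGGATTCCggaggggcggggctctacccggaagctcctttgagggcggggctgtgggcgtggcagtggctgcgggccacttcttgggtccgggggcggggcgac
Ccrl2: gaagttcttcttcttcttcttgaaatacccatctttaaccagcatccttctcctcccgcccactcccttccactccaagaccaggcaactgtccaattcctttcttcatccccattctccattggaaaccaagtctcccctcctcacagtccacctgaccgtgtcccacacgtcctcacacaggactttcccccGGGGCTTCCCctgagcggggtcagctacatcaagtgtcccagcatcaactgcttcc
Tnfaip3: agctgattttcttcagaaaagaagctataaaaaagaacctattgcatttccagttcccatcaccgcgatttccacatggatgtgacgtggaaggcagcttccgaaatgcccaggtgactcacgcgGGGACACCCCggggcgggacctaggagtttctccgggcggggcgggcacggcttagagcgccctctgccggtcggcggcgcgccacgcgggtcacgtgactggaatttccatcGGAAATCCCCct
The Cxcl2 stretch holds 2 matches that overlap, the first starting 97 bases before the start, and the Nfkbia match lies 29 to 20 bases before it. In Tnfaip3 the matches begin 125 and 12 bases before the start. Ccrl2 has 3 promoters in the table and Tnfaip3 has 2, and in each gene the one with the match is shown.

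Over windows of 250 bases, the κB consensus was found in 13 of 40 promoters (32.5%) of the genes at least 1 log2 higher in the first hour, against 11.5% of the promoters of all genes tested and 9.55% of all 32851 promoters in the table. By gene, 12 of 31 (38.7%) had a match, against 13.5% of the genes tested. The AP-1 motif TGANTCA was in 10% of those promoters and in 5.18% of the promoters of genes tested. The cAMP-response element TGACGTCA was in 5% (Btg2 and Dusp1), against 2.27%. The CArG box, the serum response factor motif of 2 C, a run of A or T and 2 G, was in 2.5% (the promoter of Zfp36), against 1.17%. A match describes letters in the window and is not evidence of binding, and these shares were not tested.

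The 4 arrays were close to one another. Over the 15526 genes tested, the difference between the 0.5 h array and the 0 h arrays had an SD of 0.245 and 0.237 log2, and between the 1 h array and the 0 h arrays 0.264 and 0.260, against 0.196 between the 2 arrays at 0 h. The 0.5 h array differed at least 2-fold from the 0 h arrays in 43 and 35 genes, the 1 h array in 82 and 87, and the 0 h arrays from each other in 9. Macrophage markers were measured at like levels in all 4 arrays: the median level of all 8 was 10.98 log2 in the first hour and 11.08 at 0 h, and Csf1r, the M-CSF receptor, had 11.36 and 11.54 in αKG arrays, against 11.48 and 11.50 at 0 h. Of the markers of other cell types, 6 of 8 neutrophil genes (75%) had both αKG arrays below both 0 h arrays. Over all genes tested that share was 22.5%. The median difference of the neutrophil genes was -0.26 log2. The summed level of the neutrophil genes was 10.83 to 10.90 log2 in αKG arrays, against 11.07 to 11.08 at 0 h. Megakaryocyte genes were lower in 2 of 4 (50%, against 22.5% of all genes), with a median of -0.23. Their summed level was 10.66 to 10.69 in αKG arrays, against 10.75 to 10.79 at 0 h. In such bulk samples, fewer cells of a type and less RNA per cell cannot be told apart, and the part of these cells in the differences below was not tested. The summed level of B cell genes was 8.79 to 8.94 in αKG arrays, against 8.74 to 8.84 at 0 h, with 0 of 4 genes separated. That of T and NK cell genes was 6.83 to 7.05, against 6.74 to 6.76, with 2 of 3 higher (66.7%, against 19.2% of all genes). The summed level of stromal genes was 7.69 to 7.71, against 7.65 to 7.70, with 0 of 5 separated. Dendritic cell genes had 9.53 to 9.74, against 9.49 to 9.59, with 0 of 5 separated. The 1 erythroid gene tested, Epor, had 5.49 to 5.59, against 5.67 in both, and the 1 mast cell gene tested, Kit, 4.69 to 4.79, against 4.94 to 5.06.

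Within the first hour, a small set of signalling and inflammatory genes stood far above 0 h, and few genes stood far below it. In 38 genes (0.245% of those tested) both αKG arrays lay above both 0 h arrays and the means differed by at least 1 log2, which is 2-fold. In the other direction there were 3 genes (0.0193%). Without the 0.5 h array these counts were 65 and 13, without the 1 h array 24 were higher, and without the second 0 h array 5 were lower. Without the size limit, both αKG arrays lay above both 0 h arrays in 19.2% of genes and below both in 22.5%. In the limma fit of all 8 groups of the study, 0 genes (0%) passed an adjusted p of 0.05, with 540 at an unadjusted p under 0.05, of which 323 were higher and 217 lower. That fit takes its spread from all 8 pairs of arrays, most of which are hours apart.

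Fits on fewer arrays made more calls. In limma on the 4 arrays alone, 67 genes were higher (0.432%) and 29 lower (0.187%), 96 in all, with 1790 at an unadjusted p under 0.05. This count depended on single arrays: leaving out the 0.5 h array gave 628, leaving out the 1 h array 315, and leaving out the first or the second 0 h array 14 or 16. In limma on the groups up to 6 h, 4 genes passed, Nfkbia, Ptger4, Btg2 and Junb, all higher. Without the 0.5 h array this count was 38, without the 1 h array 3, and without either 0 h array 0. The fit on the 4 arrays takes 0.5 and 1 h as a single group, so a change between these times counts as spread. In a limma line over hours on the same 4 arrays, 197 genes passed, 140 of them higher. Below, "passed with 4 arrays" names the fit on the 4 arrays, and differences are αKG minus 0 h in log2 with the standard error of the 8-group fit. An exact permutation test of 2 arrays against 2 cannot give a two-sided p below 0.333.

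**Figure D1:**
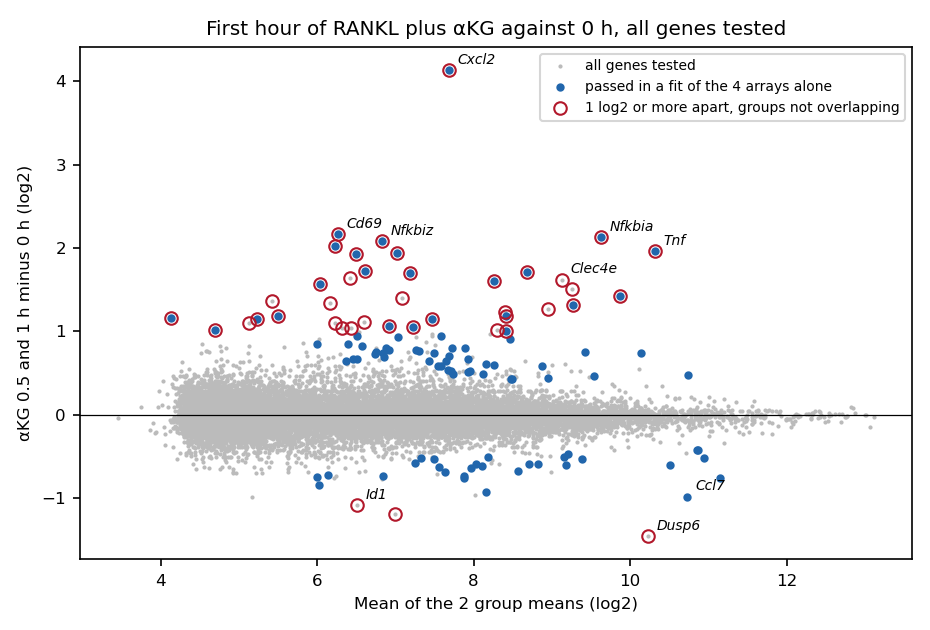
The mean difference, αKG at 0.5 and 1 h minus 0 h (log2, vertical axis), is plotted against the mean of both groups (log2, horizontal axis) for the 15526 genes tested (grey). Blue points are the 96 genes that passed with 4 arrays and red rings the 38 higher and 3 lower genes at least 1 log2 apart with no overlap; Cxcl2 lies at 4.13.

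The widest separation of all genes was that of Cxcl2. Cxcl2, a chemokine that draws neutrophils, had 9.27 log2 at 0.5 h and 10.23 at 1 h, against 5.65 and 5.59 in the 0 h arrays. Both αKG arrays lay far above 0 h, and the difference was 4.13 ± 0.93. It passed with 4 arrays (adjusted p = 0.000203) and in a line over hours (0.00126), but not in the 8-group fit (0.752) or in the groups up to 6 h (0.253). Cd69, an early activation receptor, had 6.86 and 7.85 in αKG arrays, against 5.06 and 5.30 at 0 h (2.17 ± 0.36, passed with 4 arrays). Tnf, the inflammatory cytokine, had 10.93 and 11.68 in αKG arrays, against 9.38 and 9.30 at 0 h (1.96 ± 1.50). The groups of Cd69 and of Tnf did not overlap, and in both genes the 1 h array was the higher. Ptger4, a receptor for prostaglandin E2, had 6.92 and 7.55, against 5.11 and 5.33 (2.02 ± 0.30), and Ccrl2, an atypical chemoattractant receptor, 6.95 and 7.98, against 5.68 and 5.81 (1.72 ± 0.54). Ptger4 and Ccrl2 also passed with 4 arrays, and Ptger4 in the groups up to 6 h.

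**Figure D2:**
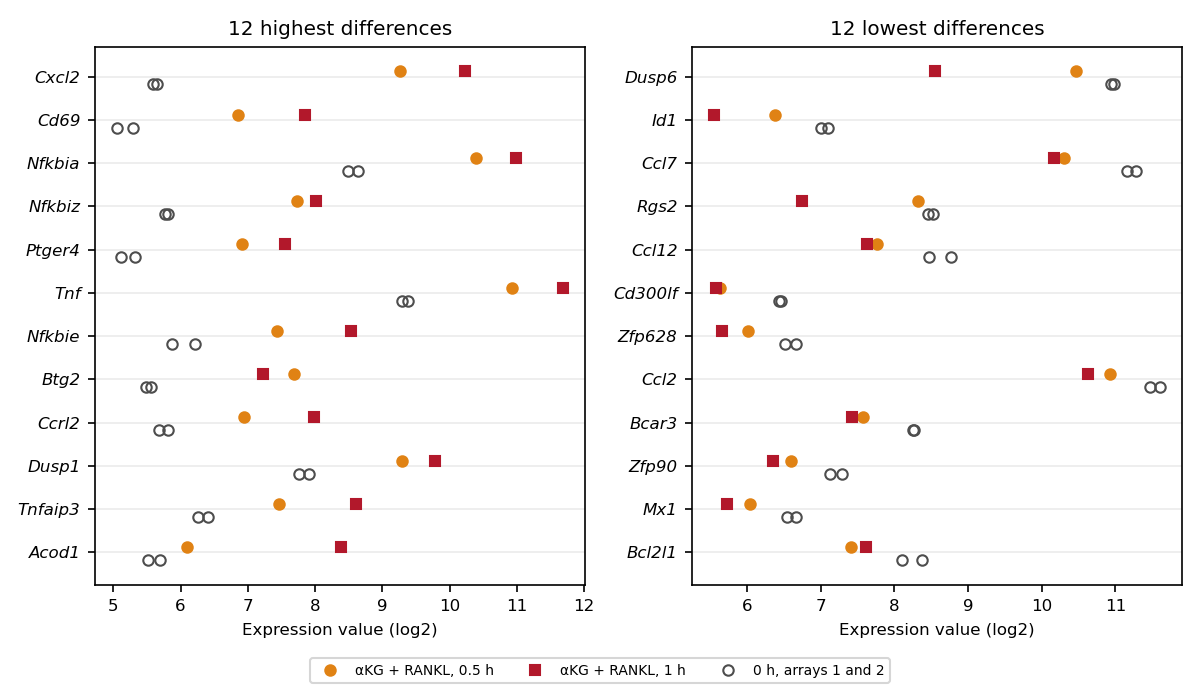
Expression values (log2, horizontal axis) of the 12 genes with the highest and the 12 with the lowest difference among those whose groups do not overlap, with predicted and microRNA genes left out; filled points are the αKG arrays at 0.5 h (circle) and 1 h (square), and open circles the 2 arrays at 0 h. Among the highest genes only Btg2 has its 0.5 h value above its 1 h value, and Acod1 is widest apart between the 2 times.

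The inhibitors and feedback regulators of NF-κB stood above 0 h as a whole list. All 17 measured members of the list of NF-κB subunits and feedback regulators had both αKG arrays above both 0 h arrays, where 19.2% of all genes did, and 7 of them were at least 1 log2 apart, where 0.245% of all genes were. Nfkb1 had no feature with its symbol alone. Their median difference was 0.69 log2 (0.38 at 0.5 h and 1.01 at 1 h), against -0.01 over all genes. In the fit of 4 arrays 4 passed as higher, Nfkbia, Nfkbiz, Nfkbie and Tnfaip3, where 0.432% of all genes did. Nfkbia encodes IκBα, which holds NF-κB in the cytoplasm. It had 10.40 and 10.99 in αKG arrays, against 8.49 and 8.64 at 0 h (2.13 ± 0.40). Nfkbie, which encodes IκBε, had 7.44 and 8.53, against 5.87 and 6.22 (1.94 ± 0.69). Nfkbiz, whose product IκBζ works in the nucleus with NF-κB, had 7.73 and 8.01, against 5.77 and 5.81 (2.08 ± 0.31).

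Tnfaip3 and Birc3, which act further upstream, had their higher value at 1 h. Tnfaip3 encodes A20, a ubiquitin-editing enzyme that limits NF-κB signalling. It had 7.47 at 0.5 h and 8.61 at 1 h, against 6.41 and 6.26 at 0 h (1.70 ± 0.37). Birc3, a ubiquitin ligase of TNF receptor complexes, had 7.28 and 8.29, against 6.32 and 6.45 (1.40 ± 0.30). It did not pass with 4 arrays but passed in the line over hours (adjusted p = 9.93e-05). The measured subunits lay nearer to 0 h than Tnfaip3 and Birc3. Nfkb2, which encodes p100, the precursor subunit of the non-canonical pathway, had 7.22 and 7.85, against 6.76 and 6.92 (0.69 ± 0.19). Rela, named here as the list's lowest member, had 9.89 and 10.08, against 9.86 and 9.72 (0.20 ± 0.12). The widest differences of the list were those of Nfkbia, Nfkbiz and Nfkbie. Of the other regulators, Tnip3 (1.51), Traf1 (1.04) and Bcl3 (0.84) lay above the measured subunits. Cyld (0.23), Nfkbib (0.34), Birc2 (0.50), Nfkbid (0.51) and Tnip1 (0.56) lay among the subunits, of which Rel had 0.46 and Relb 0.58.

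**Figure D3:**
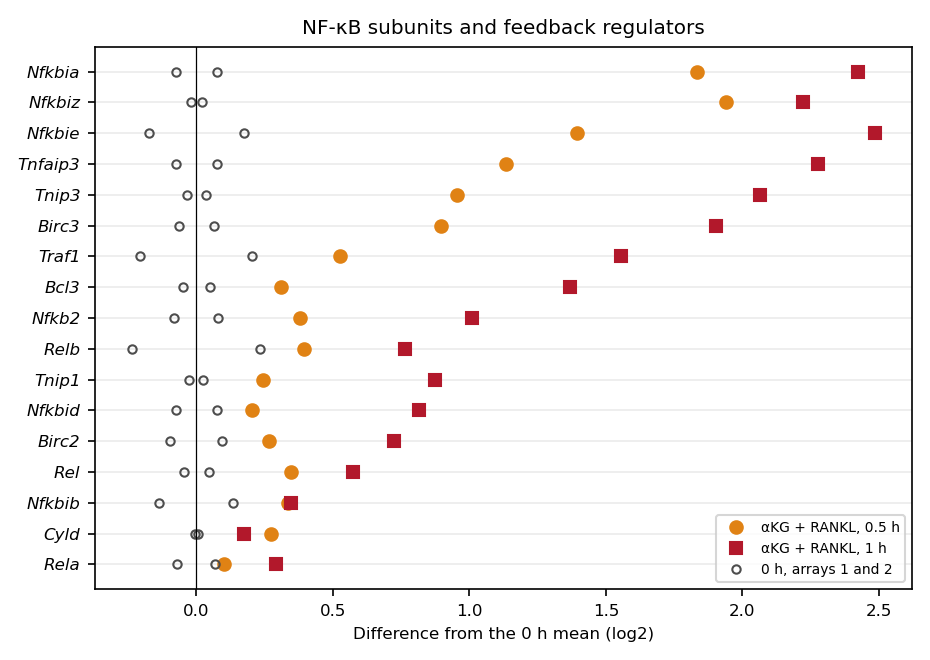
Differences from the mean of the 2 arrays at 0 h (log2, horizontal axis) for the 17 measured NF-κB subunits and feedback regulators, for the αKG arrays at 0.5 h (orange circle) and 1 h (red square) and for each 0 h array (open circle). Every αKG value lies right of both open circles, and the 1 h value is the higher in each gene but Cyld.

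Among AP-1 transcription factors, Junb stood apart from the rest. Junb had 8.92 and 9.22 in αKG arrays, against 7.37 and 7.54 at 0 h (1.61 ± 0.33), and passed with 4 arrays and in the groups up to 6 h. Fos, which osteoclast formation requires, had 8.29 at 0.5 h and 7.60 at 1 h, against 6.98 and 7.01 (0.95 ± 0.91), and passed in neither. Its groups did not overlap, and its higher value was the earlier one. Jund had 7.88 and 8.02, against 7.52 and 7.58 (0.40 ± 0.21), and Fosb 5.51 and 5.62, against 5.26 and 5.31 (0.28 ± 0.14). Of 11 members tested, 5 lay above both 0 h arrays (45.5%, against 19.2% of all genes) and 1 below (9.09%, against 22.5%), and the median difference was 0.14 log2. Without either 0 h array that median was 0.03 to 0.04.

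Of 25 other immediate early genes, 13 lay above both 0 h arrays (52%, against 19.2% of all genes) and 7 below (28%, near the 22.5% of all genes). Their median was 0.21 log2 (0.12 to 0.32 with 1 array left out). With 4 arrays 3 passed as higher, Ier3, Ier5 and Gadd45b, where 0.432% of all genes did. Egr1, a zinc finger transcription factor induced through ERK, had 7.53 at 0.5 h and 6.14 at 1 h, against 5.62 and 5.37 at 0 h (1.34 ± 0.45). Egr1 was the 1 gene of the 38 that was lower at 1 h than at 0.5 h by at least 1 log2. Ier3, which limits cell death under NF-κB control, was level between the times, with 9.92 and 9.94, against 8.60 and 8.62 (1.32 ± 0.38). Gadd45b, a stress sensor that binds MAP kinase kinases, had 7.85 and 8.25, against 6.91 and 6.89 (1.15 ± 0.27). Of the 7 members below 0 h, Rgs2 (-0.96), Rgs1 (-0.67) and Myc (-0.59) were the lowest.

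Genes whose products degrade mRNA or restrain division also stood above 0 h. Of 10 tested, 7 lay above both 0 h arrays (70%, against 19.2% of all genes) and 0 below, and their median was 0.52 log2. With 4 arrays 4 passed as higher, Zfp36, Zfp36l1, Btg1 and Btg2, where 0.432% of all genes did. Zfp36 encodes tristetraprolin, which brings mRNAs with AU-rich elements, among them Tnf, to decay. It had 10.71 at 0.5 h and 10.45 at 1 h, against 9.22 and 9.10 at 0 h (1.42 ± 0.39). Btg2, an anti-proliferative factor that recruits deadenylases, had 7.69 and 7.23, against 5.49 and 5.56 (1.93 ± 0.65). Btg1, its relative, had 7.58 and 7.73, against 6.95 and 6.81 (0.78 ± 0.35). In Zfp36 and Btg2 the 0.5 h array was the higher of the αKG pair, unlike most of the 38 genes.

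The phosphatases and other brakes of the MAP kinases lay on both sides of 0 h. Dusp1, a nuclear phosphatase of p38 and JNK, had 9.30 and 9.79 in αKG arrays, against 7.91 and 7.76 at 0 h (1.71 ± 0.42), and passed with 4 arrays. Dusp6, a cytoplasmic phosphatase that acts on ERK, had 10.46 at 0.5 h and 8.55 at 1 h, against 10.94 and 10.98 (-1.45 ± 0.87). This was the lowest difference of all 15526 genes, and it came mostly from the 1 h array. Dusp6 did not pass with 4 arrays but passed in the line over hours (adjusted p = 0.00249). Rgs2, an inhibitor of G protein signalling from the list of other immediate early genes, had the same form. It had 8.32 and 6.75, against 8.53 and 8.46 (-0.96 ± 0.64). Of the 14 ERK and MAP kinase feedback genes, 4 lay above both 0 h arrays (28.6%, against 19.2% of all genes). Another 3 lay below (21.4%, against 22.5%), and the median was 0.02.

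The chemokines lay on both sides of 0 h. Of 14 tested, 3 lay above both 0 h arrays (21.4%, against 19.2% of all genes), the CXC genes Cxcl1, Cxcl2 and Cxcl10. Another 7 lay below (50%, against 22.5%). The median was -0.09 log2. Cxcl1, like Cxcl2 a neutrophil attractant, had 6.85 and 6.79, against 5.28 and 5.22 (1.57 ± 0.28), and passed with 4 arrays. Cxcl10, an interferon-inducible chemokine, had 8.90 and 10.29, against 8.16 and 8.48 (1.27 ± 0.57). It did not pass with 4 arrays but passed in the line over hours (adjusted p = 0.00128). Ccl7 and Ccl2, which draw monocytes, lay below 0 h. Ccl7 had 10.30 and 10.17, against 11.28 and 11.16 (-0.98 ± 1.69), and Ccl2 10.92 and 10.63, against 11.60 and 11.47 (-0.76 ± 1.77). Ccl12, a monocyte attractant of the same cluster, had 7.77 and 7.63, against 8.77 and 8.47 (-0.92 ± 1.54). All 3 CC genes passed with 4 arrays as lower, where 0.187% of all genes did. Their standard errors in the 8-group fit were larger than their differences. Near-identical chemokine genes can share probe sequence, so single values within this family are less certain.

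Among the cytokines and activation receptors, 11 of 17 lay above both 0 h arrays (64.7%, against 19.2% of all genes) and 3 below (17.6%, against 22.5%). Their median was 0.26, and Tnf, Cd69 and Cd83 passed with 4 arrays as higher, where 0.432% of all genes did. Clec4e, the receptor Mincle, had 8.97 at 0.5 h and 10.91 at 1 h, against 8.33 and 8.30 (1.62 ± 0.60). Icam1, an adhesion molecule, had 8.34 and 9.70, against 7.86 and 7.73 (1.23 ± 0.35). Acod1, which makes itaconate from a tricarboxylic acid cycle intermediate, had 6.09 and 8.39, against 5.52 and 5.69 (1.64 ± 0.66). In these 3 genes most of the difference lay in the 1 h array, and none passed with 4 arrays. All 3 passed in the line over hours (adjusted p = 0.00117 for Clec4e, 0.00104 for Icam1 and 0.00553 for Acod1). Irf1, an interferon regulatory factor, had 7.95 and 8.15, against 6.94 and 7.28 (0.94 ± 0.30, passed with 4 arrays), while Mx1, an interferon-induced antiviral gene, had 6.04 and 5.73, against 6.55 and 6.67 (-0.73 ± 0.43). The interferon list as a whole had 2 of 11 above (18.2%, against 19.2% of all genes) and 2 below (18.2%, against 22.5%). Its median was -0.05.

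**Figure D4:**
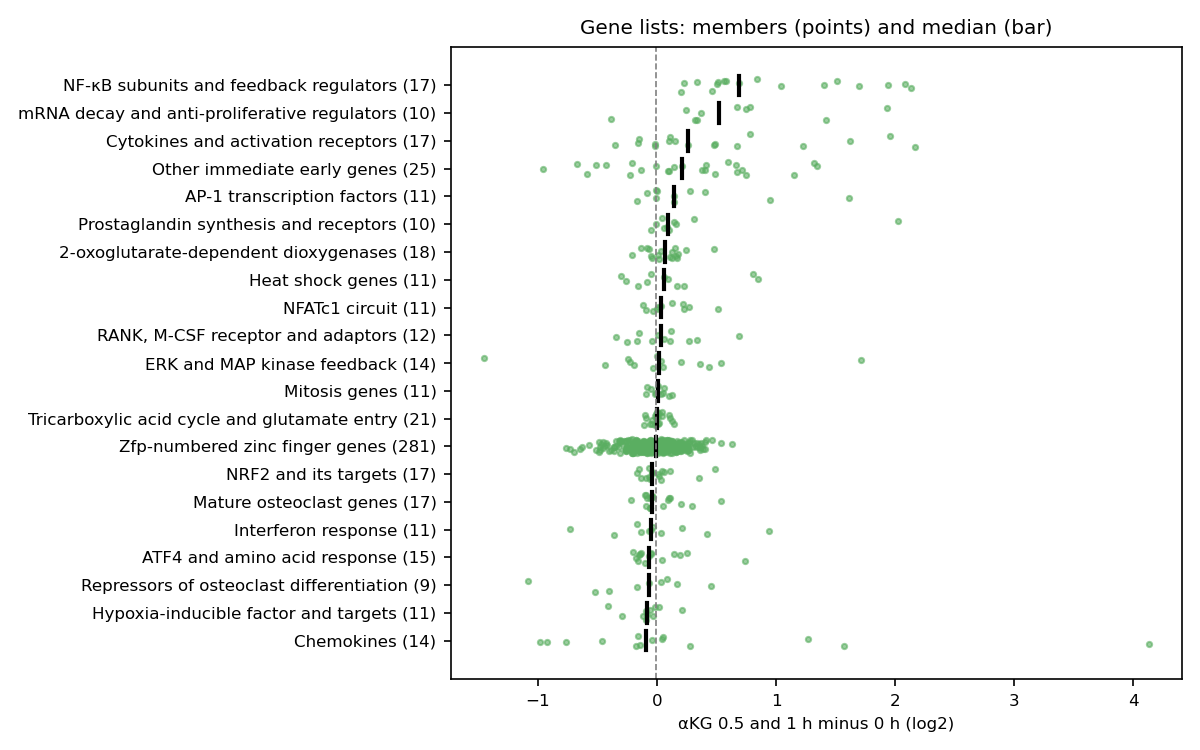
Differences, αKG at 0.5 and 1 h minus 0 h (log2, horizontal axis), of the measured members (points) of 21 gene lists, with each list's median (black bar) and number of members in brackets; the dashed line is the median of all genes, -0.01. NF-κB (0.69) and mRNA decay genes (0.52) have the highest medians and chemokines (-0.09) the lowest.

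The gene lists of the RANK signal and of osteoclast identity had medians near 0 h. Tnfrsf11a, which encodes RANK, had 8.60 and 8.55 in αKG arrays, against 8.71 and 8.74 at 0 h (-0.15 ± 0.55). Map3k14, which encodes the kinase NIK of the non-canonical NF-κB pathway, had the widest difference of the 12 receptor and adaptor genes, with 6.66 and 6.45, against 5.72 and 6.00 (0.69 ± 0.17). Traf6, the adaptor of RANK, had 7.38 and 7.61, against 7.29 and 7.17 (0.27 ± 0.27). Of these 12 genes, 4 lay above (33.3%, against 19.2% of all genes) and 4 below (33.3%, against 22.5%). Their median was 0.03. Nfatc1, the master regulator of osteoclasts, had 8.50 and 8.25, against 8.25 and 8.24 (0.13 ± 0.27). The NFATc1 circuit, Nfatc1 included, had 4 of 11 genes above both 0 h arrays (36.4%, against 19.2% of all genes), 0 below and a median of 0.03. 

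Of 17 mature osteoclast genes, 3 lay above both 0 h arrays (17.6%, against 19.2% of all genes) and 2 below (11.8%, against 22.5%). The median was -0.04, and 0 passed with 4 arrays. Acp5, tartrate-resistant acid phosphatase, had 6.54 and 6.53, against 6.61 and 6.64 (-0.09 ± 0.44). Ctsk, cathepsin K, had 5.41 and 5.65, against 5.72 and 5.45 (-0.06 ± 0.44). Mmp14, a membrane-bound collagenase, had the widest difference, 5.46 and 6.38, against 5.45 and 5.31 (0.54 ± 0.52), and its 0.5 h value sat at 0 h. Without the 0.5 h array the median of the list was 0.11.

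Of the genes that hold osteoclast formation back, Id1 was lowest. Id1, an inhibitor of helix-loop-helix transcription factors, had 6.38 and 5.56 in αKG arrays, against 7.10 and 7.00 at 0 h (-1.08 ± 0.43). Id2 had 8.89 and 9.31, against 9.67 and 9.58 (-0.52 ± 0.51). Bcl6, a repressor of osteoclast genes, lay the other way, with 7.73 and 8.07, against 7.41 and 7.50 (0.45 ± 0.36). Irf8, which keeps cells macrophages, had 8.43 and 8.14, against 8.06 and 8.17 (0.17 ± 0.58), and its groups overlapped. None of these 4 passed with 4 arrays. In the line over hours Id1 and Bcl6 passed (adjusted p = 0.00104 and 0.0231) and Id2 did not. The list had 2 of 9 above (22.2%, against 19.2% of all genes) and 4 below (44.4%, against 22.5%), with a median of -0.07.

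The lists of the tricarboxylic acid cycle, of αKG-dependent dioxygenases and of NRF2 targets had medians within 0.07 log2 of 0 h at these times. Of 21 genes of the tricarboxylic acid cycle and glutamate entry, 2 lay above both 0 h arrays (9.52%, against 19.2% of all genes). Another 5 lay below (23.8%, against 22.5%), and the differences ran from -0.11 to 0.14 log2. Of 18 genes of αKG-dependent dioxygenases, 9 lay above (50%, against 19.2% of all genes) and 3 below (16.7%, against 22.5%), with a median of 0.07. The widest was Kdm5b, a histone H3K4 demethylase, with 6.48 and 6.56, against 5.94 and 6.14 (0.48 ± 0.45). None passed with 4 arrays. Of 17 genes of NRF2 and its targets, the electrophile and oxidant defence, 2 lay above (11.8%, against 19.2% of all genes) and 7 below (41.2%, against 22.5%), with a median of -0.04 (0.01 without the first 0 h array). Hmox1, heme oxygenase, had 11.12 and 11.19, against 11.20 and 11.23, and Nqo1, a quinone reductase, 5.99 and 6.10, against 6.14 and 6.25. Nfe2l2, which encodes NRF2, had 9.83 and 10.12, against 9.62 and 9.63 (0.35 ± 0.16). Slc7a11, a cystine importer, had the widest difference of the list, with 4.27 and 5.07, against 4.35 and 4.01 (0.49 ± 0.52). Its 0.5 h value sat between the 0 h arrays.

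Stress programmes gave single genes rather than lists. Sesn2, a sestrin that restrains mTORC1 and is induced by amino acid lack, had 7.13 and 7.29, against 6.52 and 6.44 (0.74 ± 0.46), and passed with 4 arrays, while the ATF4 list had 2 of 15 above, 6 below (40%, against 22.5% of all genes) and a median of -0.07. Hspa1a, the inducible chaperone HSP70, had 6.26 and 6.60, against 5.60 and 5.56 (0.85 ± 0.35), and also passed. Its close copy Hspa1b had 5.76 and 6.19, against 4.97 and 5.37 (0.81 ± 0.58), and the probes of either may detect the other. Of all genes, 19.2% lay above and 22.5% below both 0 h arrays. The heat shock list had 2 of 11 above and 2 below (18.2% each way, median 0.06). Hypoxia targets had 0 of 11 above and 4 below (36.4%, median -0.08). Mitosis genes had 3 of 11 above (27.3%) and 0 below (median 0.01). Prostaglandin genes had 3 of 10 above (30%) and 0 below (median 0.09), led by Ptger4.

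Zfp628, Zfp90 and Zfp809, zinc finger genes with a numbered Zfp symbol, were among the 5 genes named for the lowest moderated statistics. Many genes with such symbols encode DNA-binding repressors. In the 8-group limma fit, 7 of 281 were higher and 11 lower at an unadjusted p under 0.05. Over all 15526 genes 323 were higher and 217 lower, and none passed the adjusted threshold. Of 281 tested, 55 lay above (19.6%) and 64 below (22.8%) both 0 h arrays, close to the 19.2% and 22.5% of all genes. Zfp628 had 6.01 and 5.66, against 6.67 and 6.52 (-0.76 ± 0.15). Zfp90 had 6.60 and 6.36, against 7.13 and 7.29 (-0.73 ± 0.15). It was the 1 member that passed with 4 arrays, where 0.187% of all genes passed as lower. Zfp772 lay above 0 h, with 5.25 and 5.40, against 4.86 and 4.54 (0.63 ± 0.13), and Zfp248 below it, with 4.50 and 4.61, against 5.18 and 5.19 (-0.63 ± 0.16). Among other low genes, Cd300lf, an inhibitory receptor of myeloid cells, had 5.63 and 5.58, against 6.43 and 6.46 (-0.84 ± 0.21), and Bcl2l1, which encodes the survival protein BCL-XL, 7.41 and 7.61, against 8.37 and 8.10 (-0.73 ± 0.73). Both passed with 4 arrays.

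Most of the high genes had their higher value at 1 h. Of the 38 genes, 33 were higher at 1 h than at 0.5 h, 13 of them by at least 1 log2, and 5 were higher at 0.5 h. At 0.5 h, 18 of the 38 were at least 1 log2 above the 0 h mean, and at 1 h 37 were. Over all αKG arrays up to 72 h, 20 of the 38 genes had their highest value in the first hour (5 at 0.5 h and 15 at 1 h). The 3 h array was highest in 10, the 6 h array in 1, the 12 h array in 4 and the 24 h array in 3. The 38 genes were chosen by their first-hour values. The count with the highest value in the first hour is therefore partly fixed by that choice. So are the counts at least 1 log2 above the 0 h mean at 0.5 h and at 1 h. The shares of all genes tested with these forms were not counted. The spread at a single time is unknown, since each time was 1 array.

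The αKG and DW arrays at 3 and 6 h, set against the same 0 h arrays, show what followed. Of the 38 genes, 34 were at least 1 log2 above 0 h at αKG 3 h and 26 at αKG 6 h, and 32 at DW 3 h and 24 at DW 6 h. The 38 genes were chosen by their difference from the same 0 h arrays, so these counts are partly fixed by that choice. The shares of all genes tested at least 1 log2 above 0 h at these times were not counted. Cxcl2 had 10.12 log2 at αKG 3 h and 7.44 at αKG 6 h, and 8.60 and 5.60 in the DW arrays of those times, so that its DW 6 h value was that of 0 h. Cxcl1 had 6.59 and 5.65 with αKG and 5.99 and 5.51 with DW. Nfkbia had 10.57 and 10.06 with αKG and 10.40 and 10.21 with DW, and Clec4e 12.14 and 12.10 with αKG and 12.01 and 11.87 with DW. Ier3 had 9.42 and 8.45 with αKG and 8.75 and 7.74 with DW. The NF-κB list had medians of 1.73 and 1.23 log2 above 0 h with αKG and 1.65 and 1.21 with DW at 3 and 6 h.

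**Figure D5:**
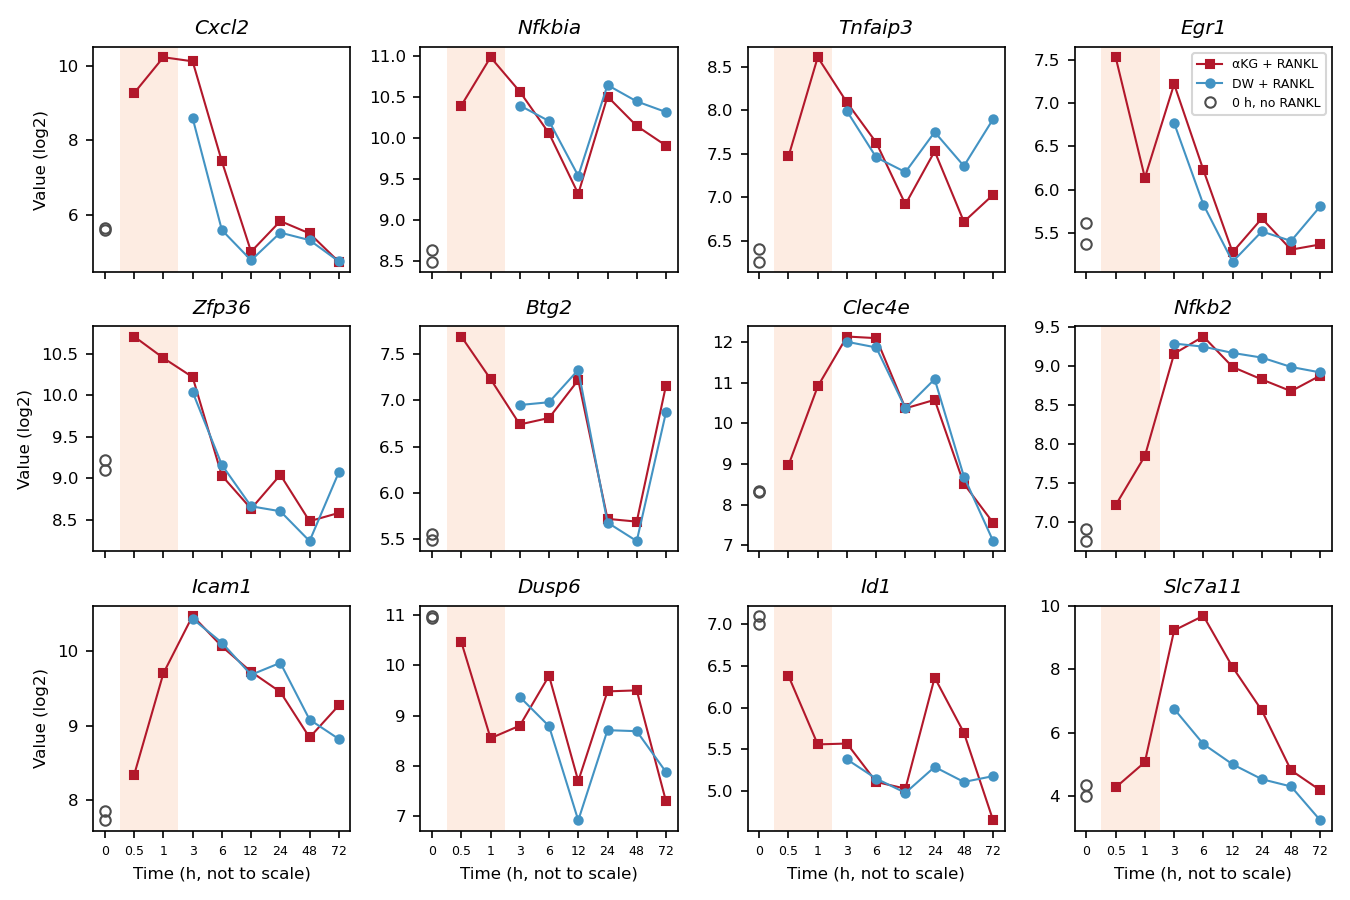
Values (log2, vertical axes) of 12 genes at each time in hours (horizontal axes, not to scale) in αKG with RANKL (red squares), DW with RANKL (blue circles) and at 0 h without RANKL (open circles), 1 array per point; the shaded band marks 0.5 and 1 h. Cxcl2 peaks at 10.23 at 1 h, Egr1 at 7.53 at 0.5 h, and Slc7a11 at 9.69 at 6 h.

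Which genes separated the first hour from the next hours of the same treatment was read from the contrast of αKG at 0.5 and 1 h with αKG at 3 and 6 h. In the 8-group fit 18 genes passed (limma), 4 higher in the first hour (0.0258%) and 14 lower (0.0902%). Slc7a11, the cystine importer xCT and an NRF2 target, had 4.27 and 5.07 in the first hour, against 9.23 and 9.69 at 3 and 6 h (-4.79 ± 0.52, adjusted p = 0.00803). Its 0.5 h value was near those at 0 h (4.35 and 4.01), and its 1 h value lay above both. DW arrays at 3 and 6 h had 6.75 and 5.64. Srxn1, sulfiredoxin, another NRF2 target, had 8.28 and 8.26, against 9.45 and 10.26 (-1.58 ± 0.23, adjusted p = 0.0336), with 8.48 and 8.67 in DW arrays. Sqstm1, the autophagy receptor p62, had 10.39 and 10.78, against 11.84 and 12.04 (-1.36 ± 0.16, adjusted p = 0.0104). Nfkb2 had 7.22 and 7.85, against 9.16 and 9.38 (-1.73 ± 0.19, adjusted p = 0.00803), and 9.29 and 9.25 in DW arrays.

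The other genes that were lower in the first hour than at 3 and 6 h with αKG had differences between -2.14 (Slc13a3, a dicarboxylate transporter) and -0.95 (Sfn, the 14-3-3σ protein). They include Procr, the protein C receptor (-2.02), Casp4, an inflammatory caspase (-1.47), and Cdkn2b, a cell cycle inhibitor (-1.08). The 4 genes higher in the first hour were Rasgrp3, an activator of Ras (6.92 and 6.89, against 5.84 and 5.22; 1.38 ± 0.21), Snx24, a sorting nexin (1.09), Polk, a DNA polymerase (0.80), and Rhoh, a small GTPase (0.79), each with an adjusted p of 0.0451. Centred on array medians, 0 genes were higher and 11 lower. Leaving out the 0.5 h array left 0 genes past the threshold, leaving out the 1 h array 3, the 3 h array 8 and the 6 h array 1. Fitted on the groups up to 6 h, 525 passed.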

How the data were processed

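The deposited values of 33793 features on 16 one-colour arrays were used as the authors gave them, on a log2 scale (0.61 to 13.25). Per the labels' protocols, total RNA was made into cDNA and labelled with biotin in a whole-transcript kit. Array medians lay between 4.84 and 4.93, so values were already normalized. How they were normalized and background-corrected, and with which annotation, is not given in the sources used here. Array numbers, not depth, limit the precision, and background could not be set per gene.

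A single gene symbol belonged to 23521 features, several symbols to 1814, and 8458 features are unnamed here. For 1082 of 22180 genes with more than 1 feature, that with the highest mean over 16 arrays was taken. A filter removed the dimmest 30% of genes (mean at or under 4.34 log2), and 15526 were tested. The mouse gene table (GRCm38.p6) held the gene ID of 23328 features.

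Tests used limma 3.58.1 under R 4.3.3 (lmFit, eBayes with trend) with Benjamini-Hochberg adjustment over all genes tested. The 8-group fit (8 residual degrees of freedom) gave the results. Fits of the 4 arrays (2 residual degrees of freedom) and of the groups up to 6 h (4) were alternatives, with other filters, scalings, a line in hours and arrays left out. Steps were tested on simulated data. The arrays, the 30 gene lists and the tests were chosen with earlier results of these data known.

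Genes were named by rule: the 12 highest and 12 lowest non-overlapping differences, the 5 highest and 5 lowest moderated statistics, up to 5 members per list by statistic, calls of each fit (up to 10 each way with 4 arrays), and Fos, Egr1, Nfkbia, Tnf, Nfatc1, Acp5, Ctsk, Irf8, Slc7a11, Hmox1 and Nqo1, skipping predicted, clone-named and microRNA genes. Other genes were named after their values were seen.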

Additional observations from a re-analysis of the deposited data

Results flagged for a closer look

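In some genes the αKG array at 0.5 h lay on one side of both 0 h arrays and the array at 1 h on the other side. This form was found in 2520 of the 15526 genes tested (16.2%), and in 9 of the 172 genes named by rule (5.23%). The differences below, 1 h minus 0.5 h, were not tested, since each time was 1 array. Of the 9, Got1, cytosolic aspartate aminotransferase, had the widest, 0.58 log2, with 10.42 at 1 h and 9.84 at 0.5 h, against 9.92 and 10.07 at 0 h. Siglech, a plasmacytoid dendritic cell receptor, differed by 0.44, Cd3d of the T cell receptor complex by 0.41, and Pax5, a B cell factor, by 0.31. The proliferation marker Mki67 differed by 0.16 and Pf4, platelet factor 4, by 0.17. Cd79b, of the B cell receptor, was lower at 1 h, by -0.18. Cdkn2b and Dst, a cytoskeletal linker, differed by 0.21 and 0.11.

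Of the list members outside the naming rule, some had wider differences than Got1, and 2 are given here after their values were seen. Klf2, a Krüppel-like factor, had 8.31 at 0.5 h and 6.75 at 1 h, against 7.06 and 7.21 at 0 h (-1.56). Zfp36l2, a relative of tristetraprolin, had 10.22 and 9.35, against 10.20 and 10.15 (-0.87). Csf1r, whose values stand in the report, was higher at 1 h by 0.18.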

How the results depend on the processing

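Against 0 h, 0 genes passed in the 8-group fit, and 96 in the fit of the 4 arrays, 4 in the groups up to 6 h and 197 (140 higher) in a line over hours. In the 8-group fit 0 passed with any 1 of the 4 arrays left out. Leaving out arrays in the other fits was chosen after seeing the data, and over all these fits the counts ran from 0 to 628: in the 4-array fit, leaving out the 0.5 h array gave 628, the 1 h array 315, and a 0 h array 14 or 16; up to 6 h 38 and 3 without the αKG arrays and 0 without either 0 h array. The 38 genes at least 1 log2 higher became 24 to 65 and the 3 lower genes 2 to 13 with 1 array left out; with no filter on dim genes 6 were lower. Against 3 and 6 h with αKG, 18 genes passed in the first hour, and the total was 10 with no filter, 11 with median centring (0 higher, 11 lower), 191 in the groups compared alone, 525 up to 6 h, and 0 to 8 with 1 array left out. The causes were not tested; the fits on part of the groups and those with an array left out hold fewer arrays.

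Of 269 list medians over the alternatives, 211 moved by less than the spread between arrays and 58 by more; the mast cell list had no gene left with the lowest 50% left out. The median of other immediate early genes was 0.17 with no filter, 0.38 with the lowest 50% left out and 0.12 to 0.32 with 1 array left out. That of the NRF2 list was -0.02 after quantile normalization and -0.04 to 0.01 with 1 array left out. With 1 array left out, the medians ran from 0.38 to 1.01 for NF-κB genes, 0.03 to 0.14 for AP-1 genes and -0.05 to 0.11 for mature osteoclast genes. Of 172 genes followed, 33 passed with 4 arrays, 4 up to 6 h and 48 in the line, and the 24 of them at least 1 log2 apart had 0 sign changes over the alternatives. Among all 172, 6 to 14 changed sign with 1 array left out, 5 in the line and 2 with the mean of all features of a gene, and in 6 cases the difference was over 1 standard error. No paired analysis was possible because the αKG arrays at 0.5 and 1 h carry no replicate numbers.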

Other observations

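Among the 67 genes higher and 29 lower in the fit of 4 arrays, some belonged to no list, and the ones given here were chosen after their values were seen, with no test of them as a group. Several are known to hold cells back from growth or to act in nutrient lack. Ccng2, an atypical cyclin found in resting cells, had 6.95 and 7.03 log2 at 0.5 and 1 h of αKG, against 6.18 and 6.14 at 0 h (0.83 ± 0.80). Trp53inp1, a p53-inducible autophagy factor, had 7.17 and 7.04, against 6.37 and 6.38 (0.73 ± 1.04). Sesn1, a sestrin like Sesn2, had 9.26 and 9.07, against 8.47 and 8.71 (0.58 ± 0.63). Bcl2l11, which encodes the death protein BIM, had 7.78 and 7.96, against 7.04 and 7.22 (0.74 ± 0.33), and Cdkn1a, the cell cycle inhibitor p21, 10.89 and 11.06, against 10.47 and 10.52 (0.48 ± 0.15). At 3 and 6 h Bcl2l11 was back near 0 h, with 6.82 and 7.07 with αKG and 6.74 and 7.26 with DW.

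Some growth and migration genes lay below 0 h in the same fit. Ccnd1, cyclin D1, had 10.28 and 10.13 in αKG arrays, against 10.84 and 10.78 at 0 h (-0.60 ± 1.45). Plau, urokinase, had 10.80 and 10.58, against 11.25 and 11.17 (-0.52 ± 1.14), and its receptor Plaur 8.50 and 8.55, against 9.22 and 9.02 (-0.59 ± 1.28). Cx3cr1, the fractalkine receptor of monocytes and macrophages, had 7.74 and 7.72, against 8.35 and 8.29 (-0.59 ± 0.24), and Tlr5, the flagellin receptor, 7.26 and 7.21, against 7.78 and 7.76 (-0.53 ± 0.22). None of these genes passed in the 8-group fit.

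A further pair of genes, also chosen after their values were seen, lay above 0 h in both αKG arrays. Dyrk3, a kinase, had 6.24 and 5.95 in the first hour, against 4.78 and 5.04 at 0 h (1.19 ± 0.34), and 4.78 and 5.29 at 3 and 6 h with αKG and 4.89 and 4.69 with DW. Nod2, a sensor of bacterial cell wall, had 6.85 and 7.10, against 5.91 and 6.17 (0.94 ± 0.20), and 6.61 and 6.48 at 3 and 6 h with αKG.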
